A study of Mus musculus with 6 samples.

Results

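The Notch pathway genes described here are the receptors Notch1, Notch2 and Notch3, the ligands Jag1 and Jag2, the HEY transcription factors Hey1, Hey2 and Heyl, and Nrarp. They were taken from the 16300 genes of a differential expression table of mouse granulosa cells (GCs), by name alone. Rows were found for 8 of the 9 genes, and Nrarp, a feedback inhibitor of the pathway, was not analysed here. The 6 RNA-seq libraries compare 3 control cultures (media) with 3 cultures given the androgen dihydrotestosterone (DHT), 25 nM for 24 h. The cells were primary GCs of wild type C57BL/6J mice aged 8 to 9 weeks, collected on the day of estrus, cultured with serum and then kept serum-free before and during treatment. Each library held the pooled cells of 5 mice, so it gives no value for a single animal. The labels' extraction text speaks of whole ovary, whereas their titles and cell type and the study's methods name GCs. The groups were taken from the treatment given for each sample.

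Notch receptors are single-pass membrane proteins that bind Jagged or Delta-like ligands on a neighbouring cell. Binding leads to cleavage of the receptor by ADAM proteases and by gamma-secretase, which frees an intracellular domain that enters the nucleus and binds the DNA-binding protein RBPJ. The HES and HEY genes, which encode basic helix-loop-helix repressors, are among the best known targets of that complex. In the mouse ovary, Notch2 is known as a receptor of GCs and Jag1 as a ligand made by the oocyte, and Notch1, Notch3, Notch4 and Heyl are also known from blood vessels and their mural cells.

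The reads recovered from the table summed to between 36111177 and 41928585 per library, and the 8 genes had between 61 and 8137 reads in a library. Of 13 GC markers, 12 were listed, at up to 60095 normalized counts (Inha, which encodes the inhibin alpha subunit, in control replicate 1). Foxl2, a transcription factor that maintains GC identity, lay between 2194 and 2588. Other GC markers were low, with Fshr, the follicle stimulating hormone receptor gene, between 135 and 168 and Amh between 63.3 and 196. The aromatase gene Cyp19a1 was not analysed here. Control replicate 3 stood apart from the other controls for several of the genes below. For each library in turn, genes were called without it at both of the study's thresholds. Control replicate 3 was nearer to the DHT mean than to the mean of the other controls for 89 of 285 such genes (31.2%), against 35 of 202 (17.3%) for control replicate 2 and 9 of 158 (5.70%) for control replicate 1. The DHT libraries were nearer to the controls for 2.88% to 16.2% of their genes. Over all genes, control replicate 3 was still nearer to its own group (mean Euclidean distance of log2 values 46.3) than to the DHT libraries (54.9), although its distance to DHT replicate 1 and to control replicate 1 was the same, 48.3. It was singled out after its values were seen, and leaving it out widens, by construction, the difference of a gene for which it lies on the DHT side of the other controls, and narrows that of a gene for which it lies on the far side. Fold changes of the 8 genes are therefore given with and without it, and the cause of its position was not tested.

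Of the HEY genes, Hey2 has a promoter entry in RefSeq and holds 2 copies of the RBPJ core motif within 250 bases before and 50 after its annotated start, so its sequence is shown here. The motif searched was GTGGGAA on either strand (TTCCCAC on the other). The stretch lies at chr10:30842781-30843033 of GRCm38.p6 on the minus strand and runs from 250 bases before the start to the end of the second match, with the matches in capitals.
Hey2: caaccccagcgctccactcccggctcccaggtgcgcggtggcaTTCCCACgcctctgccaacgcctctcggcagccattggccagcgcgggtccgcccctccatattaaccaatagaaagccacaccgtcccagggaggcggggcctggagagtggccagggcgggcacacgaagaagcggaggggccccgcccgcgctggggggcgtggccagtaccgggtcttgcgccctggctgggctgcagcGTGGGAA
Counted from the annotated start as 0, the matches span bases -207 to -201 on the opposite strand and -4 to 2 on the strand of the gene. Of 32851 RefSeq promoter windows of 300 bases, 2097 (6.38%) held at least 1 match and 84 (0.256%) held at least 2. The windows of Notch1, Notch2, Notch3, Jag1, Jag2 and Nrarp held none of these letters. The androgen response half-site letters TGTTCT occurred in none of the 7 windows of the genes described here and in 6233 (19.0%) of all windows, on either strand. A match or its absence describes these letters in this window and nothing about binding. Hey1 and Heyl have no entry in the promoter table.

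Between control and DHT, 1 of the 8 genes passed the test at an adjusted p of at most 0.05 (limma on log2(normalized count + 1), Benjamini-Hochberg over 16292 genes). Hey2 fell, no member rose, and none passed the study's further threshold of an absolute log2 fold change above 1. Of all genes tested, 4.66% were called lower, 6.52% higher, 11.2% in either direction and 1.31% at both thresholds. At an unadjusted p under 0.05, 3 of the 8 genes counted (Notch2, Hey2 and Heyl), against 25.2% of all genes. The groups did not overlap for 2 of the 8 (Notch2 and Hey2), against 30.6% of all genes. The median log2 fold change of the 8 genes was 0.03 and their median absolute change 0.22, against -0.01 and 0.11 over all genes tested. Without control replicate 3, 3 genes were called higher (Notch2, Hey1 and Heyl) and 1 lower (Hey2), against 7.64% and 5.32% of the 16225 genes then tested. By tests on the recovered reads, edgeR called Hey2 lower and no other member, against 4.57% of all genes called lower. DESeq2 called Hey2 lower and Notch2 higher, against 5.47% and 7.62% of the genes to which it gave an adjusted p.

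**Figure D1:**
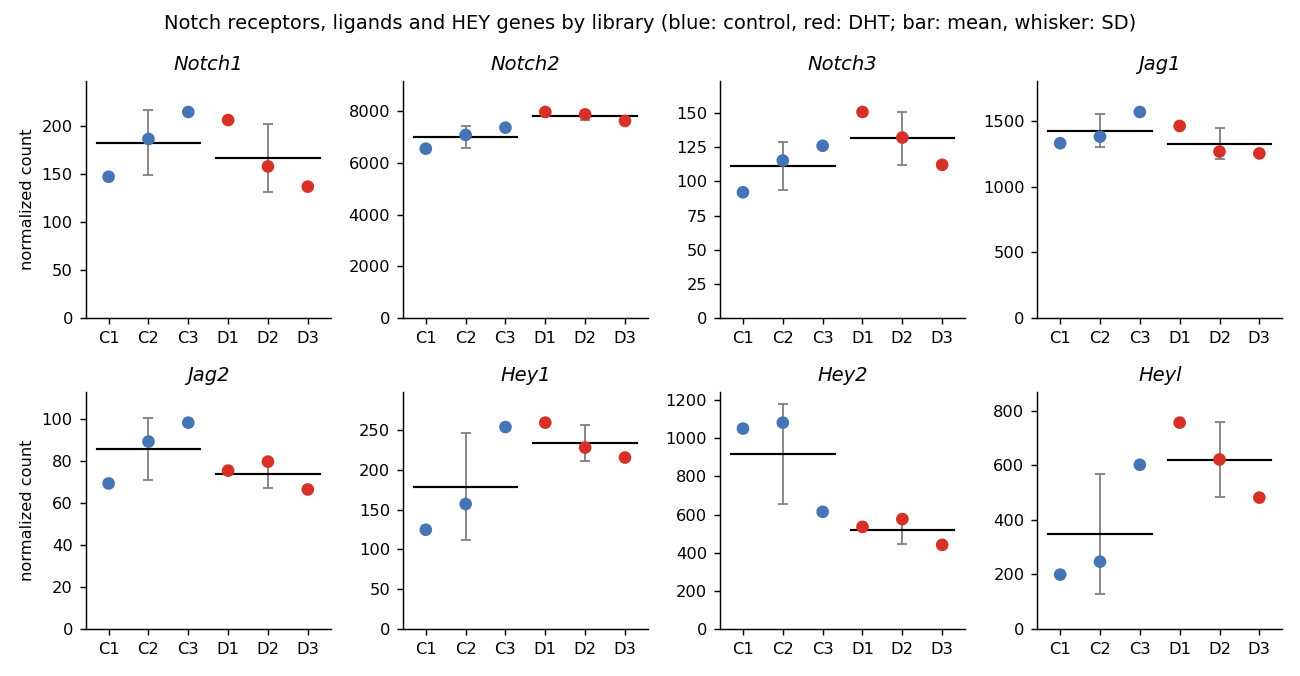
Normalized counts (y axis, from 0) of the 8 genes in each library (x axis), with control libraries C1 to C3 in blue, DHT libraries D1 to D3 in red, bars at the group means and whiskers of 1 SD. Hey1 and Heyl in C3 (254 and 601) lie at the level of the DHT libraries, and the DHT libraries lie above the controls for Notch2 and below them for Hey2.

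Notch2 was by far the most abundant receptor. Notch2 (ENSMUSG00000027878, chr3:98013527-98150361, plus strand) had normalized counts of 6545, 7076 and 7356 in control replicates 1 to 3, and of 7962, 7871 and 7618 in DHT replicates 1 to 3. All 3 DHT libraries lay above all 3 controls, which 15.9% of all genes also showed. The means were 6992 ± 412 and 7817 ± 178 (SD, n = 3 each), a ratio of 1.12. The log2 fold change was 0.16 ± 0.047 (SE), with an adjusted p of 0.060 by limma. It passed without control replicate 3 (0.20 ± 0.046, adjusted p = 0.023 by limma) and in DESeq2 on the recovered reads (adjusted p = 0.034), and did not pass in the other leave-outs, whose highest adjusted p was 0.18.

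Notch1 and Notch3 were scarce, and their groups overlapped. Notch1 (ENSMUSG00000026923, chr2:26457903-26516663, minus strand) had 147, 187 and 215 normalized counts in the controls and 206, 158 and 137 with DHT. DHT replicate 1 lay within the range of the controls, and the log2 fold change was -0.13 ± 0.18 (SE, adjusted p = 0.71 by limma). It was -0.0096 without control replicate 3 and -0.0013 without DHT replicate 3, and -0.28 and -0.29 without replicate 1 of the controls or of DHT. Notch3 (ENSMUSG00000038146, chr17:32120820-32166852, minus strand) had 92.0, 115 and 126 in the controls and 151, 132 and 112 with DHT. The groups shared the span from 112 to 126, and the log2 fold change was 0.24 ± 0.16 (SE, adjusted p = 0.40 by limma). It was 0.34 without control replicate 3, 0.12 without control replicate 1 and 0.14 without DHT replicate 1. The highest leave-out value was 0.354, without DHT replicate 3. The lowest DHT library was thus below the median control for Notch3. Exons of Notch1 and Notch3 overlap genes on the opposite strand, over 1482 and 488 bases, and 541 bases of Notch2 exons overlap a gene on the same strand. The strand setting of the counting is not given in the sources used here, so reads in those stretches are uncertain.

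Levels of different genes were compared per kilobase of exon. Notch2 had a control mean of 649 normalized counts per kb, Notch3 13.7 and Notch1 12.9. Of the summed receptor level per kb, Notch2 made up 96.1% ± 0.43 in the controls and 96.3% ± 0.54 with DHT (SD, n = 3 each; exact permutation p = 0.7, two-sided). Notch1 made up 1.90% ± 0.24 and 1.56% ± 0.29 (exact permutation p = 0.2), and Notch3 2.03% ± 0.19 and 2.16% ± 0.26 (exact permutation p = 0.5). With 3 libraries a group the smallest p this test can give is 0.1, so no share could pass at 0.05.

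The ligand Jag1 was lower on average with DHT, by less than the spread between libraries. Jag1 (ENSMUSG00000027276, chr2:137081456-137116644, minus strand) had 1330, 1380 and 1567 normalized counts in the controls and 1461, 1267 and 1253 with DHT. DHT replicate 1 lay among the controls, and the log2 fold change was -0.10 ± 0.079 (SE, adjusted p = 0.46 by limma). It was -0.034 without control replicate 3, and -0.064 and -0.18 without DHT replicates 3 and 1. Jag2 (ENSMUSG00000002799, chr12:112907819-112929776, minus strand) had 69.3, 89.2 and 98.2 in the controls and 75.3, 79.6 and 66.4 with DHT. The lowest library was DHT replicate 3 and the next lowest control replicate 1, and the log2 fold change was -0.20 ± 0.17 (SE, adjusted p = 0.53 by limma). It was -0.094 without control replicate 3, -0.13 without DHT replicate 3 and -0.34 without control replicate 1. Per kb, Jag1 had a control mean of 245 and Jag2 of 12.3.

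Oocyte markers varied between libraries beside Jag1. The 7 oocyte markers summed to 810, 331 and 309 normalized counts in the controls and to 543, 52.4 and 575 with DHT, and none of the 7 passed the test. In DHT replicate 2, Zp3, which encodes a zona pellucida protein, was listed at 0, and Jag1 was at 1267, beside 1253 in DHT replicate 3. Fewer cells of a type and less RNA per cell cannot be told apart in such libraries.

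**Figure D2:**
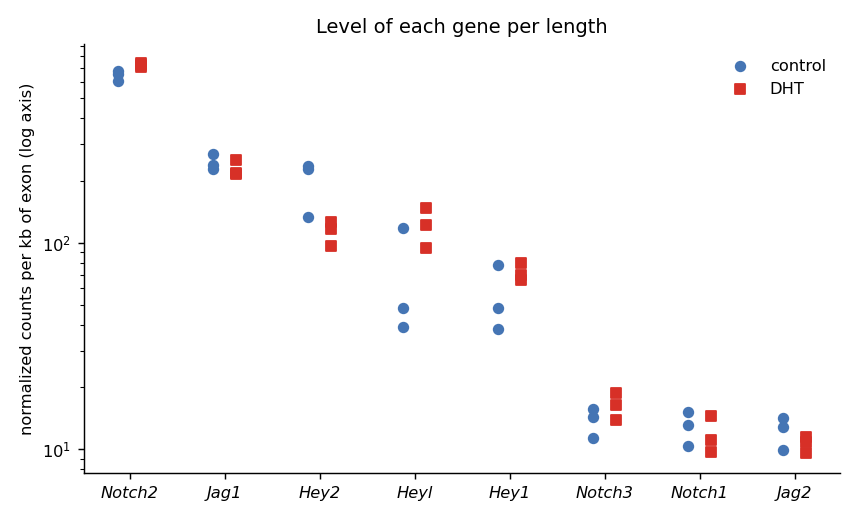
Normalized counts per kilobase of exon (y axis, log scale) of the 8 genes, ordered by control mean, with 1 point per library (blue circles, control; red squares, DHT). Notch2 lies above all others, Jag1 and the HEY genes lie in a middle band, and Notch3, Notch1 and Jag2 lie lowest.

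By control mean per kb, the order was Notch2 (649), Jag1 (245), Hey2 (199), Heyl (68.2), Hey1 (54.7), Notch3 (13.7), Notch1 (12.9) and Jag2 (12.3). Over all 6 libraries, only Notch2 and Jag1, and Hey1 and Notch3, were neighbours in this order whose ranges did not overlap. With DHT the means of Hey2 and Heyl were 113 and 121 normalized counts per kb. Notch2 lay at percentile 81.9 of the 16259 genes with a length, Jag1 at 58.1, Hey2 at 48.8, and Jag2, the lowest, at 13.7.

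Hey2 was the member that fell. HEY2 is a transcriptional repressor best known from the heart and arteries. Hey2 (ENSMUSG00000019789, chr10:30832359-30842801, minus strand) had 1051, 1082 and 614 normalized counts in the controls and 535, 576 and 441 with DHT. All 3 DHT libraries lay below all 3 controls, which 14.7% of all genes also showed, and control replicate 3 lay close to the highest DHT library. The means were 916 ± 261 and 517 ± 69.4 (SD, n = 3 each), a ratio of 0.565. The log2 fold change was -0.79 ± 0.20 (SE, adjusted p = 0.036 by limma), and the adjusted p was 0.029 both in edgeR and in DESeq2 on the recovered reads, and 0.15 in limma without the intensity trend, where Hey2 did not pass. Without control replicate 3 the log2 fold change was -1.05 ± 0.11 (SE, adjusted p = 0.00040 by limma). Leaving out any other library ended the call, with adjusted p from limma of 0.10 and 0.12 without control replicates 1 and 2, and of 0.077, 0.069 and 0.14 without DHT replicates 1 to 3. The log2 fold change lay between -1.05 and -0.64 in all 6 leave-outs.

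Hey1 and Heyl had higher means with DHT and did not pass the test. HEY1 and HEYL are repressors of the same family as HEY2. Hey1 (ENSMUSG00000040289, chr3:8663359-8667256, minus strand) had 125, 157 and 254 normalized counts in the controls and 259, 228 and 215 with DHT. Control replicate 3 lay within the range of the DHT libraries, and the other controls lay below them. The log2 fold change was 0.45 ± 0.23 (SE, adjusted p = 0.25 by limma). Without control replicate 3 it was 0.73 ± 0.14 (SE, adjusted p = 0.0096 by limma).

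Heyl (ENSMUSG00000032744, chr4:123233556-123249875, plus strand) had 199, 246 and 601 normalized counts in the controls and 755, 621 and 481 with DHT. Control replicate 3 again lay within the DHT range, above DHT replicate 3, and the other controls lay below every DHT library. The means were 349 ± 220 and 619 ± 137 (SD, n = 3 each). The log2 fold change, the largest of the 8 genes in size, was 0.98 ± 0.35 (SE), with an unadjusted p of 0.022 and an adjusted p of 0.12 by limma. Without control replicate 3 it was 1.46 ± 0.17 (SE, adjusted p = 0.00087 by limma).

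**Figure D3:**
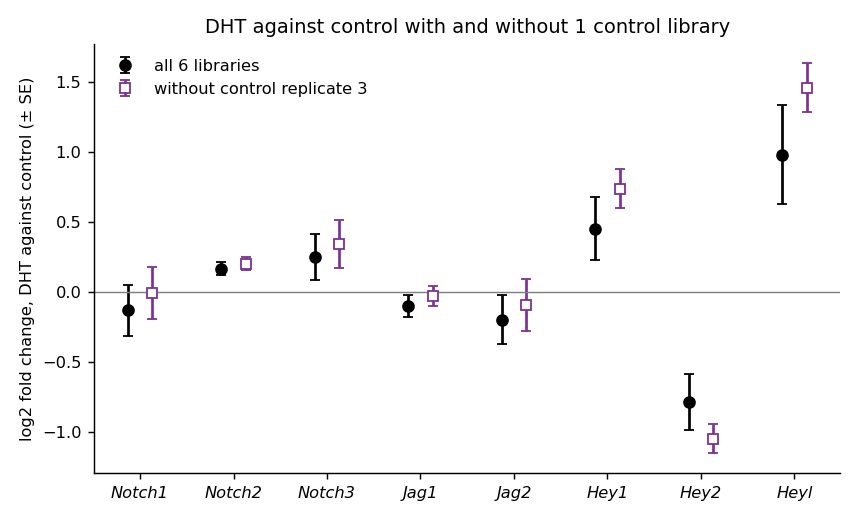
Log2 fold change of DHT against control with its SE (y axis) for the 8 genes (x axis), from limma on all 6 libraries (black circles) and on 5 libraries without control replicate 3 (open squares). Leaving that library out moved Heyl from 0.98 to 1.46, Hey1 from 0.45 to 0.73 and Hey2 from -0.79 to -1.05, and moved the receptors and ligands by less.

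Control replicate 3 had 1.80 times the mean of the other controls for Hey1, 2.70 times for Heyl and 0.576 times for Hey2. On a log2 scale on which the mean of control replicates 1 and 2 is 0 and the DHT mean is 1, it stood at 1.16 for Hey1, 0.99 for Heyl, 0.85 for Notch3, 0.76 for Hey2 and 0.56 for Notch2. For Notch1, Jag1 and Jag2 it lay on the far side of the other controls from the DHT mean (-38.7, -6.25 and -3.37), and the distance from the other controls to that mean, the unit of the scale, was small for these genes. Hes1, the HES target of Notch, stood at 0.93 on that scale. Hes1 had 337, 382 and 3230 normalized counts in the controls and 3763, 4074 and 3566 with DHT. All 3 DHT libraries lay above all 3 controls, and the log2 fold change was 2.34 ± 0.71 (SE, adjusted p = 0.068 by limma). Without control replicate 3 it was 3.40 ± 0.073 (SE, adjusted p = 1.16e-07 by limma). In edgeR on the recovered reads of all 6 libraries, the log2 fold change of Hes1 was 1.53 (adjusted p = 0.21), and limma without the intensity trend gave an adjusted p of 0.21. By the size of the shift of control replicate 3 from the other controls, Hes1 ranked 3, Heyl 88, Hey1 511 and Hey2 630 among 16292 genes. Hes6, the other HES gene listed, had control and DHT means of 1207 and 1296 (log2 fold change 0.10 ± 0.072, adjusted p = 0.43 by limma).

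**Figure D4:**
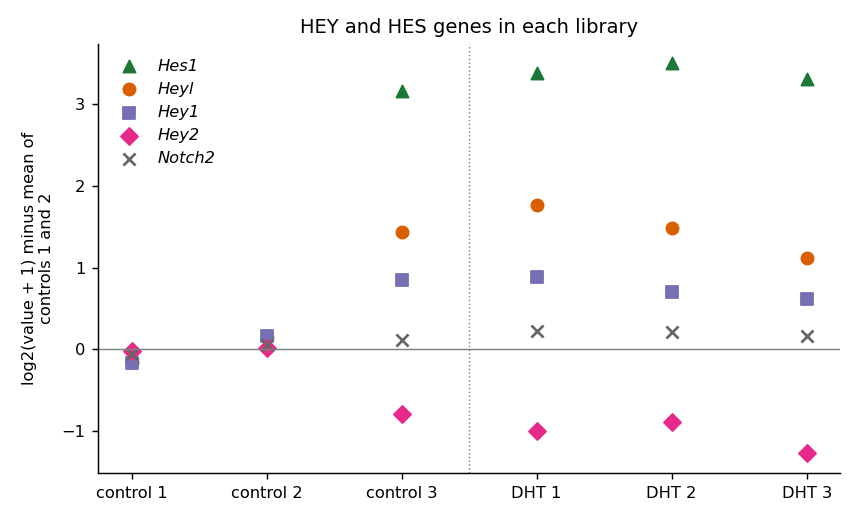
Log2(normalized count + 1) minus the mean of control replicates 1 and 2 (y axis) in each library (x axis) for Hes1, Heyl, Hey1, Hey2 and Notch2, with control libraries left and DHT libraries right of the dotted line. Control replicate 3 lies beside the DHT libraries for the HEY genes and Hes1, above 0 for Hes1, Heyl and Hey1 and below 0 for Hey2.

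Ratios between HEY genes were taken within each library, and of the 3 ratios only that of Hey2 to Heyl had groups that did not overlap. The log2 ratio of Hey2 to Heyl was 2.40, 2.14 and 0.03 in control replicates 1 to 3 and -0.50, -0.11 and -0.13 with DHT. All DHT libraries lay below all controls, and the mean difference was -1.77 (exact permutation p = 0.1, two-sided, the smallest possible). Without control replicate 3 the mean difference was -2.51. The log2 ratio of Hey1 to Hey2 was on average 1.24 higher with DHT, with control replicate 3 within the DHT range (exact permutation p = 0.2), and that of Hey1 to Heyl 0.53 lower (DHT minus control -0.53, exact permutation p = 0.2).

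Among the receptors, the log2 ratio of Notch1 to Notch3 was 0.72 ± 0.05 in the controls and 0.34 ± 0.10 with DHT (SD, n = 3 each; exact permutation p = 0.1, two-sided). All DHT libraries lay below all controls for this ratio, which gives the smallest p this test can reach. Neither gene passed the test alone, and their reads per library were few (126 to 232 for Notch1 and 93 to 154 for Notch3). The differences were -0.30 for Notch1 to Notch2 (exact permutation p = 0.2), -0.08 for Notch2 to Notch3 (exact permutation p = 0.6) and 0.10 for Jag1 to Jag2 (exact permutation p = 0.5). In all, 7 ratios were compared, and none could pass a threshold of 0.05.

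Of 48 other Notch pathway genes, 41 were tested, and 4 rose, 1 fell and 36 did not pass, where 6.52% of all genes tested were called higher and 4.66% lower. Their median log2 fold change was 0.0036 and their median absolute change 0.05, below the 0.11 of all genes. Those that rose were Maml2 and Maml3, Mastermind coactivators of the nuclear complex, and Fbxw7 and Dtx3, which encode a ubiquitin ligase subunit and a Deltex family protein. The gene that fell was Dlk1, a Delta-like atypical ligand. None of the genes for receptor glycosylation (4 tested), receptor proteolysis (10) or ligand endocytosis (4) passed.

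Dlk1 was the 1 pathway gene past both of the study's thresholds. Dlk1 had 163, 140 and 245 normalized counts in the controls and 56.8, 62.2 and 56.6 with DHT. Every DHT library lay well below every control, and control replicate 3 was the library farthest from them. The log2 fold change was -1.59 ± 0.20 (SE, adjusted p = 0.0014 by limma), and it was -1.36 without control replicate 3. The atypical ligands Dlk2 and Dner did not pass, with log2 fold changes of 0.44 and 0.61 (adjusted p = 0.075 and 0.16 by limma). Dner passed without control replicate 2 (0.91, adjusted p = 0.017 by limma), and its log2 fold change was 0.37 without control replicate 3. Dlk2 passed in limma without the intensity trend (adjusted p = 0.028).

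Fbxw7, whose product marks the Notch intracellular domain for degradation, had 1095, 1225 and 1391 normalized counts in the controls and 2027, 1713 and 1747 with DHT. The gap between the groups exceeded the range of either, and the log2 fold change was 0.57 ± 0.092 (SE, adjusted p = 0.0050 by limma). Fbxw7 passed in all 6 leave-outs and did not pass without the intensity trend (adjusted p = 0.057 by limma). Maml3 (0.42, adjusted p = 0.037 by limma), Maml2 (0.32, adjusted p = 0.049) and Dtx3 (0.18, adjusted p = 0.048) were close to the threshold. Maml2 did not pass in edgeR (adjusted p = 0.052) or under quantile normalization (adjusted p = 0.063 by limma), and Dtx3 did not pass under quantile normalization (adjusted p = 0.065 by limma). Maml3 passed without control replicate 3 only, Maml2 without control replicate 2 only, and Dtx3 without control replicate 3 or DHT replicate 1 only, with log2 fold changes over the leave-outs of 0.32 to 0.52, 0.24 to 0.41 and 0.15 to 0.22.

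Rbpj, the DNA-binding partner of all Notch receptors, had means of 8069 ± 589 and 7294 ± 437 (SD, n = 3 each), with overlapping groups and a log2 fold change of -0.14 ± 0.062 (SE, adjusted p = 0.18 by limma). Without control replicate 1 the change was -0.21 (adjusted p = 0.049 by limma). Notch4, known from endothelium, was low, with means of 31.3 and 33.5 and a log2 fold change of 0.09 ± 0.27 (SE, adjusted p = 0.88 by limma), which turned to -0.08 without control replicate 3. The Delta-like ligands Dll1, Dll3 and Dll4 were not analysed here.

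**Figure D5:**
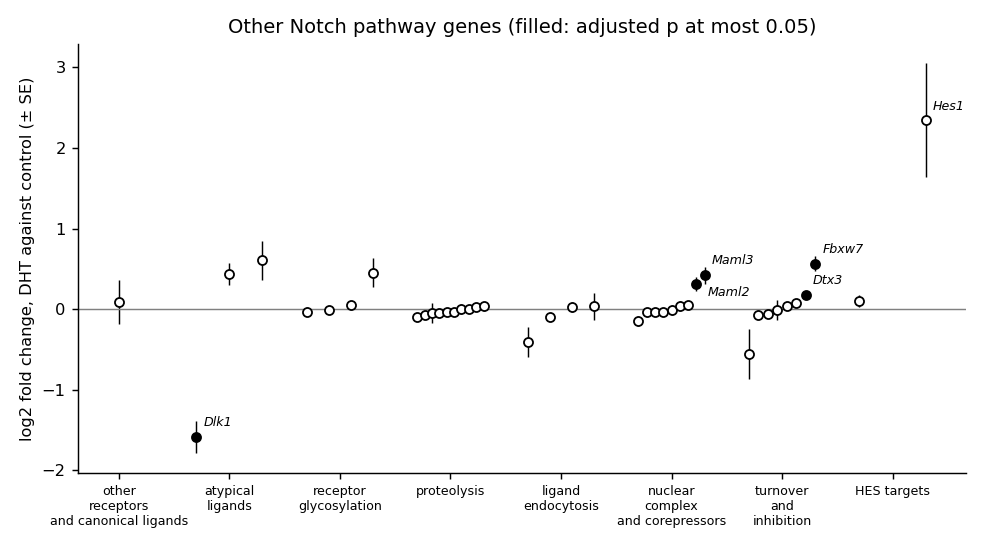
Log2 fold change of DHT against control with its SE (y axis) for the 41 other Notch pathway genes tested, grouped by role (x axis), with genes at an adjusted p of at most 0.05 filled. Most genes lie near 0, Dlk1 lies at -1.59, and Hes1, which did not pass, lies highest at 2.34.

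Markers of vessel cells were present beside the receptors and Heyl. Of 10 mural cell markers, 7 were listed and 3 rose, where 6.52% of all genes tested were called higher. Acta2, Myh11 and Cspg4 rose, with log2 fold changes of 0.76, 0.67 and 0.89 (adjusted p = 0.0056, 0.013 and 0.019 by limma). Tagln (0.48), Des (0.25), Pdgfrb (0.21) and Mcam (-0.05) did not pass (adjusted p from 0.064 to 0.87 by limma). The 7 genes summed to 9617, 14717 and 13038 normalized counts in control replicates 1 to 3 and to between 16286 and 17851 with DHT, and the defining pericyte markers Rgs5, Kcnj8 and Abcc9 were not analysed here. Acta2, Tagln and Mcam made up most of the mural sum, each at 2055 or more in every library. Pdgfrb, Cspg4 and Des were each at or below 85.1. Control replicate 2 had a higher mural sum than control replicate 3, and Heyl was at 246 in the former and 601 in the latter. Of 10 endothelial markers, 6 were listed, each at or below 74.0 normalized counts in every library, and 1 rose (Erg, from 12.2 ± 6.53 to 42.4 ± 10.6, SD, n = 3 each). They summed to between 182 and 223 in the controls and to between 198 and 284 with DHT. The part of these cells in the values of Notch1, Notch3 and Heyl was not tested.

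Of the 12 GC markers, 1 rose (Hsd17b1) and 4 fell (Foxl2, Inha, Kitl and Esr2), against 6.52% and 4.66% of all genes tested. None of the 6 theca and stroma markers listed or the 6 surface epithelium markers passed, and of 4 leukocyte markers 1 fell (Csf1r).

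Over the 6 libraries, the genes most like Heyl by Pearson correlation of log2(normalized count + 1) were Samd4b (0.999), Per1 (0.996) and Lrch2 (0.995). Samd4b encodes an RNA-binding protein and Per1 a repressor of the circadian clock. Their highest library was DHT replicate 1 and their lowest control replicate 1, as for Heyl, with 1235, 1319 and 2281 normalized counts of Per1 in the controls and 2441, 2224 and 2008 with DHT. None of the 3 passed the test, with adjusted p from 0.14 to 0.30 by limma. The correlation does not reflect the size of a change. Log2 fold changes were 0.08 for Samd4b, 0.52 for Per1 and 0.17 for Lrch2, against 0.98 for Heyl. Heyl was the gene matched because its log2 fold change was the largest in size of the 8, and the best matches among 16292 genes over 6 points are high by selection.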

How the data were processed

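RNA-seq libraries of 3 control and 3 DHT cultures were grouped by the treatment label. Per the labels and the methods of the study, the authors trimmed reads with Trimmomatic 0.36, mapped them to GRCm38 with STAR 2.5.2b and counted them with featureCounts (Subread 1.5.2). The deposited signal is a normalized count, for which the authors divided reads by a DESeq2 size factor. The deposited fold change and p-value columns, and a second table of selected genes, were not used. Dividing by the common step gave whole reads (tolerance 0.01) for 100% of 16300 genes.

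In R 4.3.3, limma 3.58.1 was fitted to log2(value + 1) with a trend on intensity for genes with a mean of at least 10, and p-values were adjusted by Benjamini-Hochberg. Ratios and shares were compared by exact permutation. Alternatives were pseudocounts, filters, quantile and TMM scaling, no trend, a replicate block, edgeR 4.0.16, DESeq2 1.42.0 and leave-outs. The limma, edgeR and DESeq2 tests were checked on counts simulated with the same dispersion for all genes and no outlying library. The exact permutation tests were not checked in this way. p-values measure the spread between pools only. The genes, lists and tests were chosen with earlier results of these data known. Named genes were the 9 members, pathway genes that passed, 5 fixed pathway genes (Notch4, Dll1, Dll4, Rbpj, Hes1) and the 3 best matches of the member with the largest change. Of the pathway list, 1 further gene is not reported here. Others, and the motifs, were named after their values were seen. Positions and lengths are from GENCODE, promoters from RefSeq (GRCm38.p6).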

Additional observations from a re-analysis of the deposited data

How the results depend on the processing

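Notch2 passed under quantile normalization (log2 fold change 0.15, adjusted p = 0.047 by limma), in DESeq2 (0.16, adjusted p = 0.034) and without control replicate 3, over a leave-out range of 0.12 to 0.20. Hey2 did not pass without the intensity trend (-0.79, adjusted p = 0.15 by limma) or in 5 of the 6 leave-outs (range -1.05 to -0.64). Leave-outs moved Hey1 between 0.22 and 0.73 and Heyl between 0.66 and 1.46, each past the threshold without control replicate 3. The count of members called higher was 1 under quantile normalization, 1 in DESeq2 and 0 to 3 in leave-outs, and the count called lower was 0 without the trend and 0 to 1 in leave-outs. The count of pathway genes called higher was 2 under quantile normalization, 3 in edgeR, 1 without the trend (Dlk2, with an adjusted p of 0.028 by limma, whereas Fbxw7, Maml2, Maml3 and Dtx3 did not pass) and 1 to 4 in leave-outs, and that called lower was 1 to 2. The Notch2 to Notch3 log2 ratio (-0.18 to 0.0055) turned to 0.0055 without DHT replicate 1, the Notch2 share (-0.037 to 0.50 percentage points) to -0.037 without DHT replicate 3, and the log2 fold change of Notch4 (leave-outs -0.078 to 0.31) to -0.078 without control replicate 3 and -0.06 without DHT replicate 2. The cause was not tested. At 3 libraries a group, exact tests cannot go below 0.1.

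Whether a control and a DHT library with the same replicate number form a pair could not be decided from their deviations. Correlations were 0.0058, 0.067 and -0.24 where the numbers matched, and between -0.19 and 0.23 where they differed. These ranges overlap, so the correlations do not tell paired from unpaired libraries. Under a replicate block, Hey2 was still called (-0.79, adjusted p = 0.0089 by limma), and 1 pathway gene (Fbxw7) was called higher instead of 4, since Maml2, Maml3 and Dtx3 did not pass (adjusted p = 0.069, 0.092 and 0.11 by limma). Over all genes the block moved the share called from 11.2% to 6.08%.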

Other observations

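Genes with the pattern of Hes1 and Heyl, high in control replicate 3 and with DHT, were picked after the values were seen. Nr4a3, which encodes an orphan nuclear receptor, had the largest shift of control replicate 3 of all genes tested, with 24.7, 19.5 and 427 normalized counts in the controls and 415, 212 and 204 with DHT. Nr4a1, of the same family, had 1950, 2546 and 10385 in the controls and 9911, 7263 and 6431 with DHT. Arrdc3, an arrestin domain gene, had 2569, 2657 and 8144 in the controls and 7777, 6963 and 6741 with DHT. None of these 3 genes passed the test in all 6 libraries (adjusted p = 0.24 for Nr4a1, 0.22 for Nr4a3 and 0.16 for Arrdc3 by limma). Control replicate 3 was the highest library for each of the 3. Ptgfr, a prostaglandin receptor gene, and Nfkbia, which encodes an NF-kappaB inhibitor, were also looked at. Ptgfr passed (adjusted p = 0.048 by limma), with 222, 107 and 699 normalized counts in the controls and 980, 853 and 1168 with DHT. Nfkbia passed (adjusted p = 0.049 by limma), with 848, 834 and 962 in the controls and 1021, 1020 and 1061 with DHT. Control replicate 3 had 4.25 times the mean of the other controls for Ptgfr and 1.14 times for Nfkbia, and lay below every DHT library for both. These genes were picked by hand and are not the result of a search for all genes of this pattern.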
